A study of Homo sapiens with 6 samples.

Results

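S100 proteins are small calcium-binding proteins that carry a pair of EF-hands, the helix-loop-helix motifs that hold calcium. Most work as dimers that bind a partner such as an annexin, myosin or p53 when calcium rises, and some are released from cells and act on receptors such as RAGE. In the human genome most of their genes lie in 1 cluster on chromosome 1, and S100P lies on chromosome 4.

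The 10 S100 genes described here (S100A2, S100A3, S100A4, S100A6, S100A9, S100A10, S100A11, S100A13, S100A16 and S100P) were chosen by symbol among 24432 symbols, with their difference between the groups already known. Their levels are therefore given as a description, without a test. The libraries are labelled PLC/PRF/5, a human liver cancer cell line in long use. The 3 sensitive libraries came from control cells with the genotype label WT. The 3 resistant libraries came from cells labelled Lenvatinib resistant and treated with Lenvatinib, a kinase inhibitor used against liver cancer. Resistant cells began at 20 μmol/L, went up by 0.5 mmol/L at passage and ended at 40 mmol/L by the labels, whose units do not match between start and end. Both groups grew in medium with 10% serum. Drug exposure and resistance were present in the same 3 libraries and cannot be told apart. Nothing in the labels says that the 3 libraries of a group were separate cultures, so p-values measure only the spread between these libraries, which may be technical.

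Levels are read as FPKM, fragments scaled to transcript length and library size, a unit inferred from the values. Comparisons between genes rest on that scaling. Sequencing depth was alike, since the smallest step between values differed by at most 3.46% between libraries. Sensitive replicate 3 stood apart from the other sensitive libraries (Pearson's r of 0.952 and 0.964 across tested genes, against 0.995 between sensitive replicates 1 and 2). Between a sensitive and a resistant library r was far lower, from 0.680 to 0.706. Levels of 15 hepatocyte markers were read, whose sum was 5220 to 5412 FPKM in the sensitive and 19.6 to 51.2 FPKM in the resistant libraries. All 14 of 14 tested markers were lower in resistant libraries. Of these, 7 were at 1 FPKM or more in every sensitive library and under 1 FPKM in every resistant one, and so had to differ. ALB itself was at only 3.21 ± 1.06 FPKM (SD, n = 3) in sensitive and 0.00741 ± 0.0128 FPKM in resistant libraries. Whether the resistant libraries came from the same line was not tested. In such bulk samples, fewer cells of a type and less RNA per cell cannot be told apart.

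Of the 10 S100 genes, 7 were higher and 2 lower in resistant libraries with no overlap between the groups, and S100A4 overlapped. Among the 11694 tested genes, those with 3 or more libraries at 1 FPKM or above, the groups did not overlap for 74.4%. Of all tested genes 67.7% lay past an adjusted p of 0.05 in limma, 35.2% as higher and 32.5% as lower in resistant libraries. All 10 passed the filter on low values. Only 4 of them were at 1 FPKM or more in all 6 libraries, and S100A9 passed through the sensitive libraries alone. The median difference of the 10 genes was 1.41 on the log2(FPKM + 1) scale, against 0.08 over all tested genes. Differences on this scale are resistant minus sensitive and are too small for genes at low levels.

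**Figure D1:**
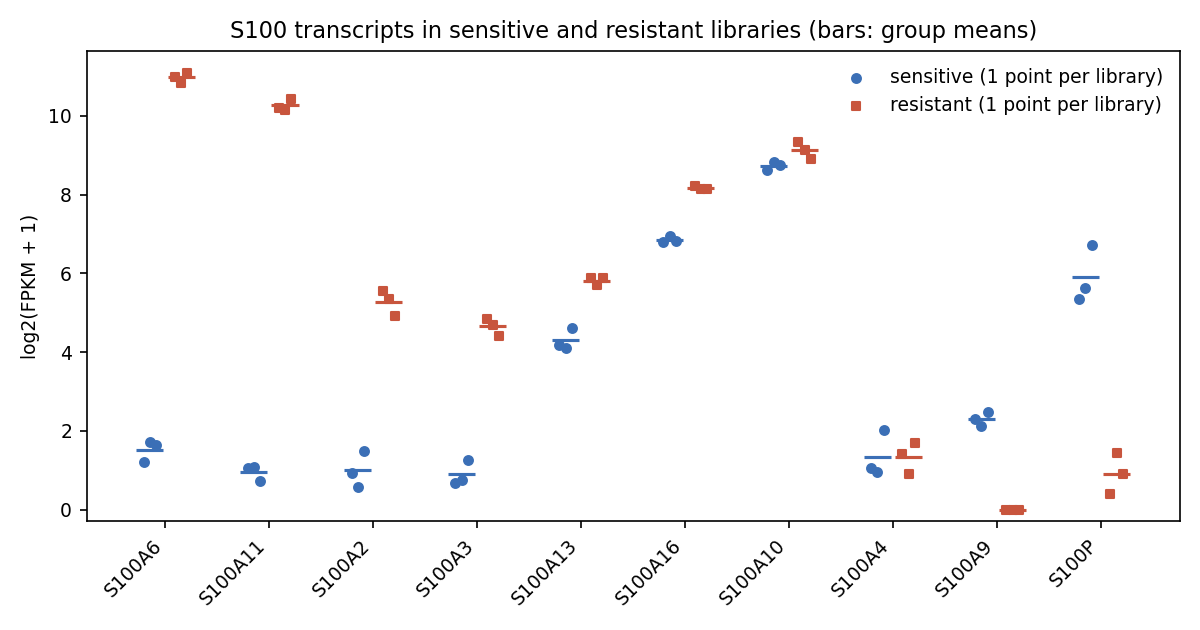
Level of each S100 gene as log2(FPKM + 1) in the 3 sensitive (circles) and 3 resistant (squares) libraries, with horizontal bars at the group means and genes ordered by difference. S100A6 and S100A11 lie furthest apart, S100A10 and S100A16 are high in both groups, S100A4 is low in both, and S100A9 and S100P are lower in resistant libraries.

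S100A6, or calcyclin, binds annexins and the ubiquitin ligase adaptor CACYBP. Sensitive replicates 1, 2 and 3 held 1.29, 2.31 and 2.14 FPKM of it, and the resistant replicates 2032, 1839 and 2190 FPKM. The lowest resistant library thus lay far above every sensitive one, and the ratio of group means was 1055.5. On the log2 scale the difference was 9.45 (SE 0.162), and it stayed between 9.29 and 9.55 when any single library was left out. By mean level S100A6 ranked 9437 of 24432 symbols in sensitive and 13 in resistant libraries.

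S100A11, a partner of annexin A1 that also acts in the growth control of epithelial cells, showed much the same pattern. It was at 1.08, 1.11 and 0.642 FPKM in the sensitive and 1179, 1140 and 1377 FPKM in the resistant replicates. Its log2 difference was 9.31 (SE 0.139), from 9.20 to 9.38 with any single library left out. It ranked 10930 in sensitive and 34 in resistant libraries. The RefSeq gene table lists 10 S100A11 pseudogenes, of which 0 have a row in the files, so how reads shared with such copies were counted is not known.

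The depth behind these low sensitive values can be read from the numbers themselves. The 6 values of each S100 gene were whole multiples of a step, within 0.002 of a whole number after correction for the depth of the library. For S100A6 and S100A11 the step is taken to be worth 1 fragment or a small number of them. S100A6 held 26, 47 and 42 steps in the sensitive libraries and 40330, 36721 and 43805 in the resistant ones. S100A11 held 24, 25 and 14 steps against 25985, 25277 and 30572. The sensitive levels of both genes therefore rest on few fragments but are not 0, and the ratio of means carries that counting error.

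S100A10, also called p11, does not bind calcium and forms a tetramer with annexin A2 at the plasma membrane. It was the most abundant of the 10 in sensitive libraries, at 396, 451 and 431 FPKM, and was at 646, 564 and 481 FPKM in resistant replicates 1, 2 and 3. The groups did not overlap but came close, with a log2 difference of 0.40 (SE 0.132). This value was 0.29 without resistant replicate 1, 0.50 without resistant replicate 3 and 0.57 under quantile normalization.

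**Figure D2:**
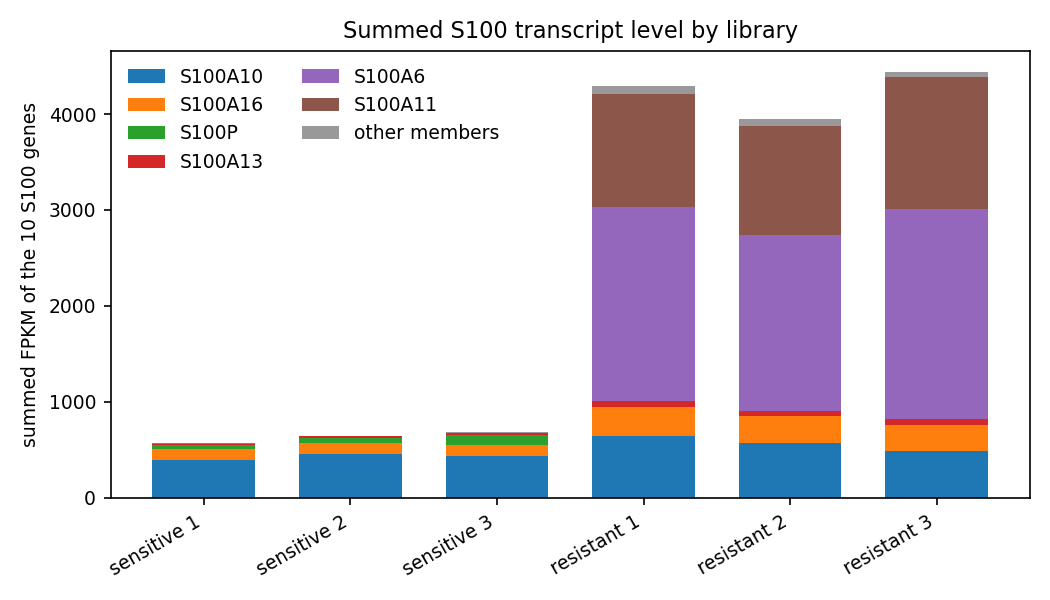
Summed FPKM of the 10 S100 genes in each library, stacked by gene. The sum is 572.0 to 686 FPKM in sensitive libraries, mostly S100A10, and 3943 to 4438 FPKM in resistant libraries, mostly S100A6 and S100A11.

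The makeup of the S100 transcript pool differed between the groups with these levels. The 10 genes together made up 0.139% to 0.151% of all summed FPKM in sensitive and 1.08% to 1.21% in resistant libraries. S100A10 supplied 67.3% ± 3.80 (SD, n = 3) of the pool in sensitive and 13.4% ± 2.25 in resistant libraries. S100A6 supplied 0.298% ± 0.0668 and 47.8% ± 1.41, and S100A11 0.151% ± 0.0504 and 29.1% ± 1.77. S100A16 went from 18.2% ± 1.55 to 6.80% ± 0.452 of the pool although its own level was higher. S100P was the third largest part of the sensitive pool, at 9.90% ± 4.62, and 0.0236% ± 0.0184 of the resistant one.

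The stretches before the start sites of S100A6 and S100A11, the genes furthest apart between the groups, and of S100A10, high in both, are shown to compare their CpG content. They are the 250 bases upstream in RefSeq's GRCh38.p14 table, on the minus strand, at chr1:153535992-153536241 for S100A6, chr1:152037005-152037254 for S100A11 and chr1:151993860-151994109 for S100A10. Capitals mark each CpG, the site of DNA methylation, of which there are 24, 15 and 24.
S100A6: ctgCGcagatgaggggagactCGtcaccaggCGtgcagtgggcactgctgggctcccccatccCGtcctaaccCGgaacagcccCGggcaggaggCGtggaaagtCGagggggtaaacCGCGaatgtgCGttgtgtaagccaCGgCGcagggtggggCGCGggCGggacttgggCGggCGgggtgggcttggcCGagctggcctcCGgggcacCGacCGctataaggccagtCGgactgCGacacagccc
S100A11: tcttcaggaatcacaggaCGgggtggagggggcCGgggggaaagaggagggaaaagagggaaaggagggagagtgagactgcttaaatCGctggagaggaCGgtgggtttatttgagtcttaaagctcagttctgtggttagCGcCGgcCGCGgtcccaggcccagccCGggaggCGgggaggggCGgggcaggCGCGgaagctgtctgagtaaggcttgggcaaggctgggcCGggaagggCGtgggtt
S100A10: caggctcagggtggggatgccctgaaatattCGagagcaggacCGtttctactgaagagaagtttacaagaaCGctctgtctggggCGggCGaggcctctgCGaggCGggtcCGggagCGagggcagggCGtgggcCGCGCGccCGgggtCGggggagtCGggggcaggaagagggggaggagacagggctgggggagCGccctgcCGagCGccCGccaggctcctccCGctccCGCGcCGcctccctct
From 250 bases before to 50 after the start, the ratio of observed to expected CpG was 0.866 for S100A6, 0.781 for S100A11 and 0.840 for S100A10, against a median of 0.579 over 35116 starts. By this ratio S100A10 lay between S100A11 and S100A6. By CpG count, at 32 against 31 for S100A6 and 22 for S100A11, it was highest. The 3 genes were picked by their levels, and a link between CpG content and level was not tested. Methylation was not measured here.

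S100A2 and S100A3 are neighbours in the cluster. S100A2 is a nuclear S100 protein of epithelial cells that binds p53, and S100A3 is known from the hair cuticle. S100A2 was at 0.895, 0.476 and 1.83 FPKM in the sensitive and 45.7, 39.8 and 29.4 FPKM in the resistant replicates, a log2 difference of 4.28 (SE 0.273) and a ratio of means of 35.9. S100A3 was at 0.612, 0.672 and 1.39 FPKM against 27.5, 24.9 and 20.4 FPKM, a difference of 3.76 (SE 0.197) and a ratio of 27.3. Both genes were highest in resistant replicate 1 and lowest in resistant replicate 3 among the resistant libraries, and both were highest in sensitive replicate 3 among the sensitive ones. Without sensitive replicate 3 the differences were 4.53 and 3.94, and the ratios of means 55.9 and 37.9. S100A2 held 39, 21 and 78 steps in the sensitive libraries and S100A3 18, 20 and 40.

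Both genes have a match to the AP-1 motif TGANTCA (N any base, either strand) upstream, shown in capitals in the 250 bases before a start on the minus strand, at chr1:153565845-153566094 for S100A2 and chr1:153549259-153549508 for S100A3 in RefSeq's GRCh38.p14.
S100A2: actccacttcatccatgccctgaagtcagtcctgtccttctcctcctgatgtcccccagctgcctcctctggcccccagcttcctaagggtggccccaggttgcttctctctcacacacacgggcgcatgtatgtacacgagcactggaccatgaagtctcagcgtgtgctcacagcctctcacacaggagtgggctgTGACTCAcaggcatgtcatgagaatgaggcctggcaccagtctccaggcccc
S100A3: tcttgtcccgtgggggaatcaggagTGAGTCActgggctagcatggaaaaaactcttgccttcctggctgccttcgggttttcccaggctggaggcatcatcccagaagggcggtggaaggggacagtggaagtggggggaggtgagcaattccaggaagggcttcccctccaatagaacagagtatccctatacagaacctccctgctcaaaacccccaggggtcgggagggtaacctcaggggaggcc
The match begins 52 bases before the start shown for S100A2, whose other start held no match, and 225 bases before the start of S100A3. These were the only 2 AP-1 matches among 14 starts of the 10 genes, and 7.71% of all 35116 starts hold one in a stretch of the same length. The ratio of observed to expected CpG was 0.189 and 0.212 there, below the lower quartile of all starts of 0.229. The TEAD motif GGAATG was found at 2 member starts, both of S100A16, against 14.03% of all starts. The TATA box TATAAA was found at 4 (S100A4, S100A9, S100P and 1 of the 3 starts of S100A13), against 11.5% of all starts. No start of the 10 genes held more than 1 of the 3 motifs, and a match is a description of the sequence only.

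S100A13 takes part in the export of FGF1 and IL1A, proteins that lack a signal peptide, and S100A16 is a broadly expressed member. S100A13 was at 17.0, 16.2 and 23.6 FPKM in the sensitive and 57.7, 51.2 and 57.6 FPKM in the resistant replicates, a log2 difference of 1.52 (SE 0.158). S100A16 was at 111, 122 and 113 FPKM against 299, 282 and 279 FPKM, a difference of 1.31 (SE 0.0903). The ratios of means, 2.93 and 2.49, were close to each other and far below those of S100A2 and S100A3. S100A16 varied least of the 10 genes, with a coefficient of variation of 5.13% in sensitive and 3.69% in resistant libraries, against medians of 21.0% and 7.89% over tested genes with a mean of at least 1 FPKM. The cargo genes of S100A13 stayed low: in the resistant libraries FGF1 reached 0.403, 0.489 and 0.380 FPKM and IL1A 0.0486, 0.193 and 0.0121 FPKM, and both were listed at 0 in the sensitive ones.

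S100A4, or metastasin, binds nonmuscle myosin and is widely used as a fibroblast and mesenchymal marker. It was at 1.08, 0.932 and 3.08 FPKM in the sensitive and 1.68, 0.858 and 2.26 FPKM in the resistant replicates. The groups overlapped, and the log2 difference was 0.00 (SE 0.332). It was 0.34 without sensitive replicate 3 and -0.20 without sensitive replicate 2. S100A4 held 19 to 67 steps in any library, and its coefficient of variation was 70.7% in sensitive and 43.9% in resistant libraries. Its locus overlaps that of S100A3 on the same strand in GENCODE release 29, and the share of reads given to each is uncertain.

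S100A9 and S100P were the members with lower levels in resistant libraries. S100A9 is known from myeloid cells, where it pairs with S100A8 as calprotectin, and is also made by epithelia. It was at 3.96, 3.39 and 4.59 FPKM in the sensitive libraries and listed at 0 in all 3 resistant ones. A single step of S100A9 is worth 0.264 FPKM, and the sensitive libraries held 15, 13 and 17 of them. This step is larger than that of any other member, and how many fragments it holds is not known. S100P, which binds ezrin and IQGAP1 and is raised in several carcinomas, was at 39.7, 48.7 and 104 FPKM in the sensitive and 0.325, 1.72 and 0.861 FPKM in the resistant replicates. Its log2 difference was -4.98 (SE 0.409), and the ratio of means was 66.2 in favour of the sensitive libraries. The resistant values rest on 6, 32 and 16 steps, and without resistant replicate 2 the ratio was 108. Sensitive replicate 3 held more than the other sensitive libraries, and without it the difference was -4.57.

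Markers of other cell types were read beside these values. Of 12 myeloid markers 10 were under 1 FPKM in every library, and PTPRC, TYROBP and ELANE among them were at 0 throughout. The summed level of the 12 was 250 to 268 FPKM in sensitive and 2.84 to 5.60 FPKM in resistant libraries. Nearly all of it was LYZ, at 242 ± 6.24 and 1.02 ± 1.08 FPKM, followed by CD68 at 14.1 ± 3.53 and 3.00 ± 0.664 FPKM. Among the resistant libraries replicate 2 was highest both in S100P and in the hepatocyte protein AMBP, which was at 2.95, 7.38 and 3.25 FPKM there and at 991 ± 282 FPKM in sensitive libraries. SERPINA1, the most abundant hepatocyte marker, was likewise at 10.0, 20.9 and 8.66 FPKM in the resistant replicates. The part of these transcripts in the S100P level of that library was not tested. Without resistant replicate 2 the S100P difference was -5.25.

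S100A2 is known from stratified epithelia, so squamous markers were read as well. The 7 of 12 with a row summed to 2.67 to 4.51 FPKM in sensitive and 607 to 722 FPKM in resistant libraries. SFN, or 14-3-3 sigma, made up nearly all of this, at 3.18 ± 0.725 and 659 ± 57.4 FPKM, followed by DSC3 at 0.438 ± 0.252 and 5.20 ± 0.308 FPKM. DSG3 was at 0 in every library, and the basal genes KRT5, KRT14 and TP63 did not exceed 0.123 FPKM in any. The basal keratin KRT17, named after its values were seen, was at 0, 0.0329 and 0 FPKM in the sensitive and 3.50, 3.87 and 2.06 FPKM in the resistant replicates. The 9 fibroblast markers summed to 0.938 to 1.85 FPKM in sensitive and 0.0583 to 0.265 FPKM in resistant libraries, led by PDGFRB (0.944 ± 0.368 and 0.0148 ± 0.0179 FPKM) and COL1A1 (0.191 ± 0.141 and 0.130 ± 0.0926 FPKM). The 6 endothelial markers summed to 0.120 to 0.185 and 0.200 to 0.348 FPKM, led by VWF (0.00192 ± 0.00166 and 0.227 ± 0.0527 FPKM) and PECAM1 (0.112 ± 0.0733 and 0.00925 ± 0.0100 FPKM).

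Of 11 further S100 genes 3 had a row, and these were low. The levels of those without a row are not known. S100A14, next to S100A16, was at 3.99, 2.68 and 2.68 FPKM in the sensitive and 0.734, 0.901 and 0.686 FPKM in the resistant libraries. S100A1, known from muscle, was at 1.44, 1.34 and 2.31 FPKM against 0.640, 1.14 and 1.81 FPKM, so its groups overlapped. S100A1 lies on the opposite strand within the S100A13 locus in GENCODE release 29, and without a stated strand setting their reads cannot be told apart. S100A5 did not exceed 0.0435 FPKM. S100A8, the partner of S100A9, is not analysed here. Of 7 genes that fuse an S100 domain to a long repeat, such as filaggrin, TCHH alone had a row, at no more than 0.0544 FPKM.

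The order of the genes along chromosome 1 was compared with their differences. In the RefSeq order S100A10 and S100A11 are adjacent, with differences of 0.40 and 9.31. They are followed by 47 protein-coding genes, mainly of the epidermal differentiation complex, of which 2 had a row. One of these, the cornified envelope gene SPRR2D, was listed at 0 in the sensitive and at 1.98, 1.30 and 2.56 FPKM in the resistant libraries. Beyond them S100A9 was lower, S100A6 was 9.45 higher, S100A4 was level, S100A3 and S100A2 were higher by 3.76 and 4.28, S100A16 by 1.31, S100A14 was lower (-1.20), and S100A13 was higher by 1.52. Both signs thus occurred along the cluster, and the neighbours S100A3 and S100A2 were alike.

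**Figure D3:**
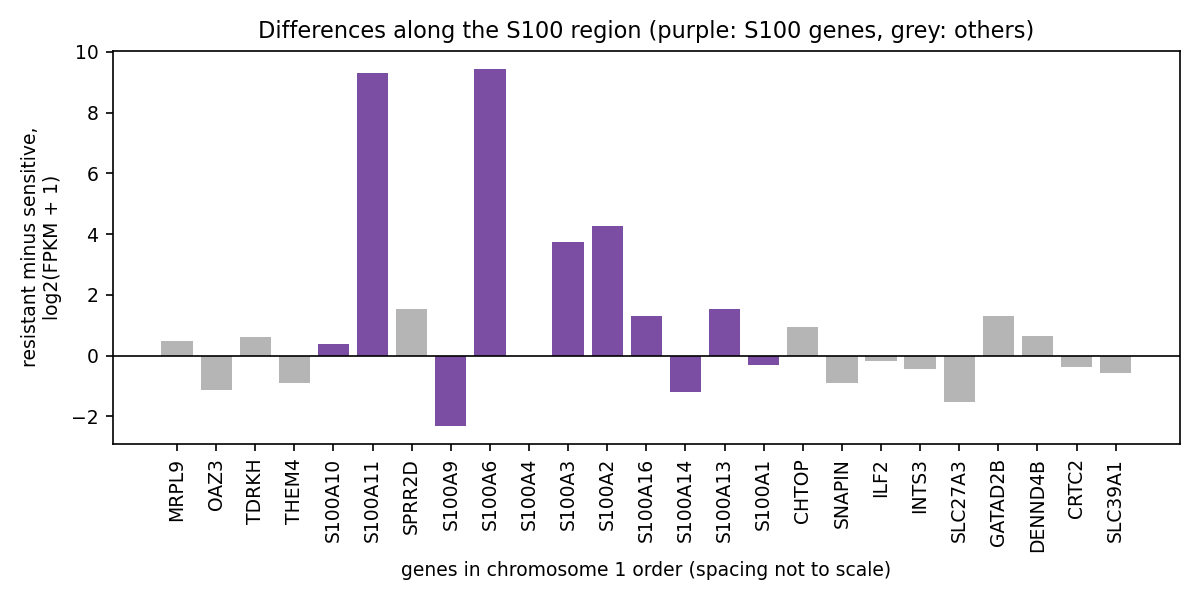
Resistant minus sensitive difference on the log2(FPKM + 1) scale for the tested genes of the S100 region, in chromosome 1 order without scale. S100 genes (purple) range from -2.31 for S100A9 to 9.45 for S100A6, while the other genes (grey) lie between -1.52 and 1.54.

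Genes around the cluster changed in both directions. Of 67 protein-coding genes between and beside the S100 genes, 20 had a row and 14 were tested. Of these 5 rose, 5 fell and 4 did not pass, with a median of -0.28 against 0.08 over all tested genes. SPRR2D, counted as risen, met the filter on low values in the resistant libraries only. SLC27A3, counted as fallen, met it in the sensitive libraries only, and so both had to differ. The 10 of 14 called are near the 67.7% called over all tested genes, and the genes called lower ranged from 2 to 7 with any single library left out, with 2 without resistant replicate 3. GATAD2B, a subunit of the NuRD chromatin complex, rose from 3.54 ± 0.566 to 10.2 ± 0.676 FPKM (log2 1.31, limma adjusted p = 0.000155, Benjamini-Hochberg over all tested genes). CHTOP, an mRNA export factor next to S100A1, rose from 58.9 ± 11.99 to 112 ± 5.19 FPKM (0.93), and DENND4B rose from 9.55 ± 2.11 to 15.1 ± 0.0963 FPKM (0.64). INTS3, of the Integrator complex, was at 15.3 ± 1.13 and 11.04 ± 1.09 FPKM (-0.44, adjusted p = 0.0157 in limma). The zinc transporter SLC39A1 was at 110 ± 36.0 and 71.0 ± 3.41 FPKM (-0.57, adjusted p = 0.0493). Both calls were lost when sensitive replicate 2 was left out, and likewise for resistant replicates 1 and 3, and that of SLC39A1 also without resistant replicate 2. SLC39A1 further lost its call with scaling to a geometric mean library, with no filter and with a mean of 5 FPKM as the filter. Over all alternatives limma adjusted p reached 0.0623 for INTS3 and 0.130 for SLC39A1.

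Proteins that S100 proteins bind, and receptors for those that are secreted, were followed as a list. Of 32 genes 30 had a row and 20 were tested, of which 11 rose, 4 fell and 5 did not pass, with a median log2 difference of 0.60 against 0.08 over all tested genes. The share called over all tested genes was 67.7%, so 15 of 20 is a share near the background. The 15 include MCAM, which met the filter on low values in the resistant libraries only and so had to differ.

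Annexins were read first, as the best known partners. ANXA1, the partner of S100A11, was at 2.20, 1.16 and 1.54 FPKM in the sensitive and 204, 208 and 169 FPKM in the resistant libraries. It rose by 6.22 on the log2 scale (SE 0.173, limma adjusted p = 5.26e-07). ANXA2, the partner of S100A10 and picked here after its values were seen, was at 207, 216 and 218 FPKM against 360, 335 and 311 FPKM, a rise of 0.64 (SE 0.0955, limma adjusted p = 0.000893). Each of these annexins differed in the same direction as its S100 partner, with 6.22 beside 9.31 and 0.64 beside 0.40. The S100 genes were chosen with their difference known and ANXA2 after its values were seen, so the shared sign is no test. Over all tested genes 35.2% were called higher. ANXA6 rose from 0.880 ± 0.169 to 13.1 ± 0.284 FPKM (2.91), whereas ANXA11, a partner of S100A6, fell from 35.7 ± 3.83 to 19.97 ± 1.89 FPKM (-0.81). ANXA6 was at 0.896, 1.04 and 0.704 FPKM in the sensitive replicates, so it met the filter on low values largely through the resistant libraries.

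Among other partners, the giant scaffold AHNAK, which binds the S100A10 and annexin A2 complex, rose from 18.3 ± 7.27 to 135 ± 7.56 FPKM (2.90). Without sensitive replicate 3, at 9.96 FPKM, the AHNAK difference was 2.53. Nonmuscle myosin heavy chain MYH9, the target of S100A4, rose from 69.95 ± 2.37 to 283.5 ± 26.7 FPKM (2.00), while S100A4 itself was level. CACYBP, the S100A6 binding protein, fell from 48.1 ± 3.81 to 29.1 ± 0.427 FPKM (-0.70, limma adjusted p = 0.000723), opposite in sign to S100A6. The S100P partners EZR and IQGAP1 were picked after their values were seen. EZR rose from 89.7 ± 3.27 to 130 ± 11.1 FPKM (0.53) and IQGAP1 from 22.9 ± 9.16 to 85.1 ± 6.37 FPKM (1.93), both opposite in sign to S100P. Without sensitive replicate 3 the IQGAP1 difference was 1.58.

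Receptors of secreted S100 proteins showed no common direction. MCAM, a receptor for S100A8 and S100A9, was at 0.0331, 0 and 0.0677 FPKM in the sensitive and 17.1, 17.9 and 16.7 FPKM in the resistant libraries (4.14). It met the filter on low values in the resistant libraries only and so had to differ, and its value is given without a test. NPTN, a receptor for S100A8, fell from 81.1 ± 5.17 to 22.3 ± 1.79 FPKM (-1.82). BSG, a receptor for S100A9 picked after its values were seen, was at 229, 261 and 386 FPKM against 399, 373 and 377 FPKM and did not pass (0.43, limma adjusted p = 0.0880), but did without sensitive replicate 3 and under quantile normalization. RAGE, encoded by AGER, stayed between 0.307 and 0.711 FPKM in all 6 libraries, and TLR4 did not exceed 0.122 FPKM.

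**Figure D4:**
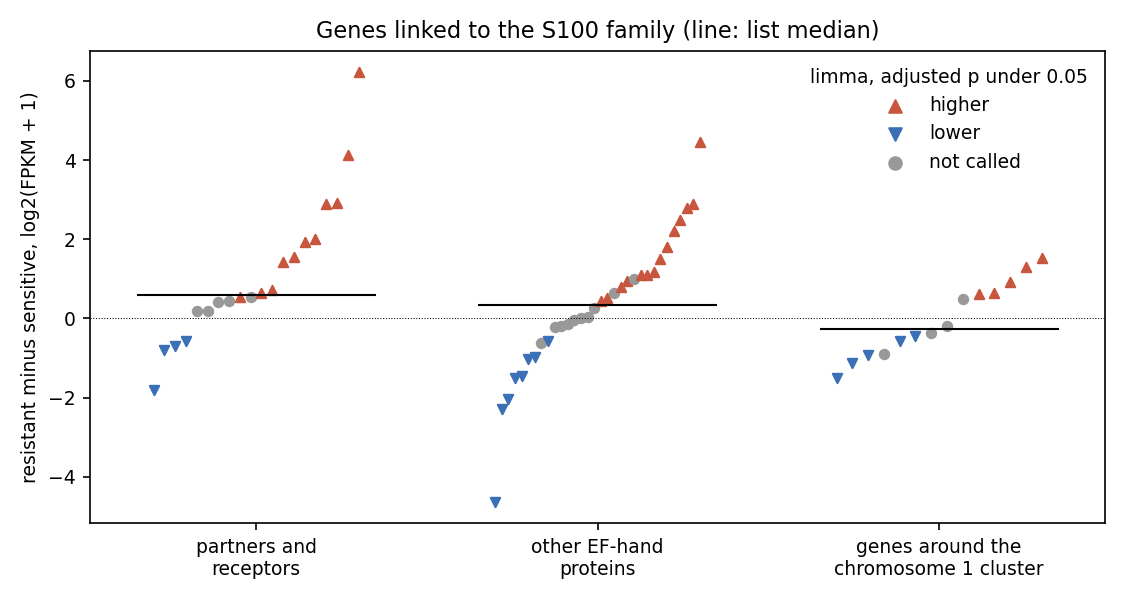
Resistant minus sensitive difference on the log2(FPKM + 1) scale for each tested gene of 3 lists, sorted within a list, with a line at the list median. Triangles mark genes past an adjusted p of 0.05 in limma, and the medians are 0.60 for partners and receptors, 0.34 for other EF-hand proteins and -0.28 for genes around the cluster. The triangles include genes that met the filter on low values in a single group and so had to differ.

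Other EF-hand proteins, which share the calcium-binding fold, were read to set the family beside related genes. Of 40 genes 38 had a row and 32 were tested, of which 14 rose, 8 fell and 10 did not pass, with a median of 0.34. The 22 of 32 called are near the 67.7% called over all tested genes. Of the called genes, CALB2 met the filter on low values in the resistant libraries only. CALML4 and SCGN met it in the sensitive libraries only. All of these had to differ, so their calls are no test. RCN1, a calcium-binding protein of the endoplasmic reticulum, rose from 10.7 ± 1.91 to 253 ± 13.2 FPKM (4.45, limma adjusted p = 7.88e-07), while its relative RCN2 fell from 21.0 ± 1.50 to 3.51 ± 0.736 FPKM (-2.30). The neuronal calcium sensor relatives HPCAL1 and NCS1 rose by 2.88 and 1.81, the calpain subunit CAPN2 by 2.80 and the endocytic ATPase EHD1 by 2.22. Without sensitive replicate 3 these differences were 2.86, 1.51, 2.45 and 2.29. TESC fell from 45.7 ± 2.64 to 0.890 ± 0.241 FPKM (-4.63), and its relative CHP1, the calcium sensor of store-operated entry STIM1, and CIB1 fell by 1.03, 1.51 and 0.98. TESC was at 0.971, 1.08 and 0.619 FPKM in the resistant replicates, so it met the filter on low values largely through the sensitive libraries. No tested gene of this list reached the differences of S100A6 and S100A11.

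The genes whose levels over the 6 libraries lay closest to S100A6, S100A11 and S100A10, the 3 members with the highest mean over all 6 libraries, were found by Euclidean distance on log2(FPKM + 1), outside the S100 family. For S100A6 they were the metallothionein MT2A, urokinase PLAU and SFN, at distances of 1.93, 2.57 and 3.00. For S100A11 they were PLAU, MT1E and IGFBP4, at 1.05, 1.86 and 2.39. For S100A10 they were H2AZ1, HSPA5 and PSMA7, at 0.62, 0.65 and 0.67. PLAU, near both S100A6 and S100A11, was at 0.632 ± 0.0643 FPKM in sensitive and 890 ± 113 FPKM in resistant libraries. These distances mostly reflect the 2 group levels, since 6 libraries of 2 groups were used.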

How the data were processed

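RNA-seq of 6 libraries was used, with groups and replicate numbers taken from the sample titles. The authors deposited 1 table per library of FPKM values per gene symbol, normalized to transcript length and library size. The unit was inferred from the values. The submitters' processing notes name cutadapt and HISAT2, and the sources used here give no version, counting program, genome build, annotation or strand setting. Libraries were made from 1.5 µg of RNA, per the labels' protocols.

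The members and gene lists were chosen with earlier results of these data known. Genes with 3 or more libraries at 1 FPKM or above (11694) were fitted on log2(FPKM + 1) by limma 3.58.1 with a mean-variance trend, under R 4.3.3, 3 against 3 libraries, with no block. Tests were two-sided, and genes were called at a Benjamini-Hochberg adjusted p under 0.05. The fit was also run on data simulated from the sensitive libraries with few genes changed. Those differ from the data here, where most tested genes were called, so its accuracy on these data was not tested. SDs are over 3 libraries, and standard errors are limma's. Named genes of the partner, EF-hand and neighbour lists are up to 5 called genes per direction by size, with a mean of at least 5 FPKM and groups that do not overlap. Members, other S100 genes of at least 1 FPKM, the 2 highest genes of each marker list and the 3 nearest genes of 3 members were named as well. As alternatives, 1 library was left out at a time, replicate number was added as a block, the pseudocount was lowered to 0.1, the filter was dropped or raised to a mean of 5 FPKM, and values were quantile normalized or scaled to a geometric mean library. Tables and figures used Python 3.11.15 with pandas 2.3.3, numpy 2.4.6 and matplotlib 3.10.9. Libraries were compared pairwise, and 0 nonzero values were identical. Of 10 members 10 matched the RefSeq promoter table (GRCh38.p14).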

Additional observations from a re-analysis of the deposited data

How the results depend on the processing

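With a mean of at least 5 FPKM as the filter, the calls over all genes were 2465 higher and 2508 lower, against 4117 and 3803, and the genes around the cluster gave 3 higher and 1 lower, against 5 and 5. Fewer genes were tested under this filter, and SLC39A1, which was still tested, lost its call. The median difference of the S100 genes was then 2.64, as S100A4 and S100A9 dropped out. With 1 library left out, calls over all genes ranged from 3468 to 4738 higher and from 3207 to 4704 lower, and neighbours called lower ranged from 2 to 7. Leaving out sensitive replicate 2 gave 3, as did resistant replicate 1 and resistant replicate 2 in turn, and leaving out resistant replicate 3 gave 2. Partners called higher ranged from 10 to 12 and lower from 3 to 4, EF-hand genes from 14 to 16 and from 7 to 9, and the S100 median from 1.37 to 1.49. A pseudocount of 0.1 gave 10.01 for S100A6, 10.24 for S100A11, 5.19 for S100A2, 4.69 for S100A3, -5.34 for S100A9 and -6.02 for S100P. No S100 gene other than S100A4, whose groups overlapped, changed sign under these alternatives. Samples with the same number did not deviate together (correlations of -0.42, 0.07 and -0.23). With the replicate block 3716 genes were called higher and 3477 lower, partners 11 and 4, EF-hand genes 14 and 8 and neighbours 5 and 4, and SLC39A1 lost its call. Few steps lie behind S100A4, S100A9, the sensitive levels of S100A2, S100A3, S100A6 and S100A11 and the resistant level of S100P. How many fragments a step of S100A9 holds is not known.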
